A study of Mus musculus with 9 samples.

Results

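Pkhd1l1 is the mouse gene for a fibrocystin-like protein, a very large single-pass membrane protein whose paralog fibrocystin, encoded by Pkhd1, is mutated in autosomal recessive polycystic kidney disease. It was followed here by its symbol in the deposited counts. Of the 2 names in the rule, Pkhd1l1 was found as 1 gene of 23018 (ENSMUSG00000038725), and Pkhd1 was not analysed here. The RNA was that of lymphatic endothelial cells (LECs), taken by a sort for CD31 and podoplanin without CD45, in meninges, diaphragm or skin. The mice were C57BL/6 males of wild-type genotype, 10 weeks old and without treatment. Each tissue gave 3 libraries, 9 in all, with 26075366 to 34592850 counts per library. All groups share strain, genotype, age and sort. Whether each library stands for its own animal or for a pool of animals is not stated, so the spread between them may be technical.

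Fibrocystin and its relative share a long extracellular part with repeated immunoglobulin-like IPT domains and G8 domains, followed by a single membrane span and a short cytoplasmic tail. Fibrocystin sits in the primary cilium of kidney and bile duct epithelium, where its ectodomain can be cut and shed. In mouse inner ear hair cells, the protein made from Pkhd1l1 forms part of the surface coat of stereocilia. LECs line the vessels that drain fluid and immune cells from tissues, and those of the meninges drain the membranes around the brain.

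Pkhd1l1 was among the most abundant transcripts of diaphragm and skin LECs and stood far lower in meningeal LECs. The 3 meningeal libraries held 3579, 839 and 2370 counts of Pkhd1l1, or 112, 26.2 and 62.6 CPM (counts scaled to the effective size of the library). The diaphragm libraries were at 1381, 1182 and 1087.5 CPM. The skin libraries were at 1426, 1160 and 1649.5 CPM, so the 6 peripheral libraries lay within 1.52-fold of each other. All 3 meningeal libraries were below all 6 others, and the lowest peripheral library was 9.71 times the highest meningeal one. Among all 14831 genes tested, 2.16% had all 3 meningeal libraries below the other 6. Pkhd1l1 was chosen with this pattern known, so its levels are given as a description and no test is attached to them. In bulk RNA, fewer cells of a type and less RNA per cell cannot be told apart.

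**Figure D1:**
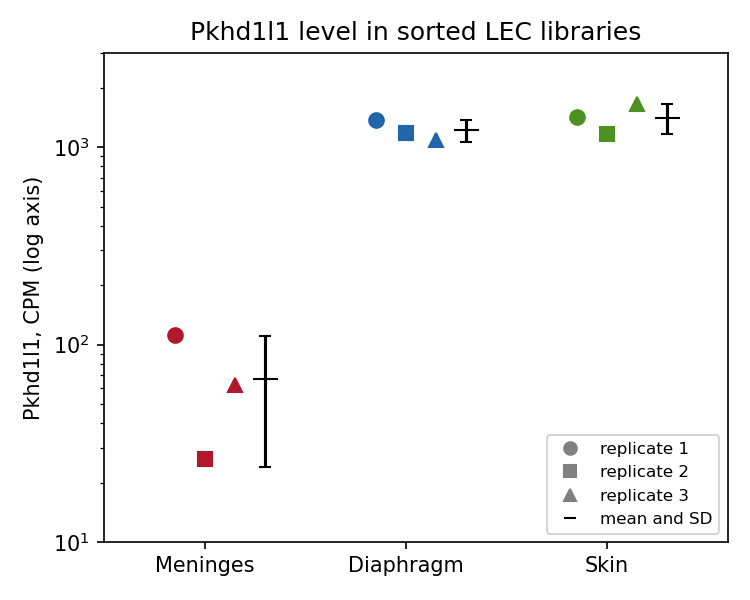
Level of Pkhd1l1 in CPM (log axis) in the 9 libraries by tissue, with 1 point per library and the mean and SD of the 3 libraries beside each group. The meningeal points lie between 26.2 and 112 CPM, and the diaphragm and skin points between 1087.5 and 1649.5 CPM with overlap between those 2 tissues.

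Meninges averaged 67.0 ± 43.1 CPM, diaphragm 1217 ± 150 CPM and skin 1412 ± 245 CPM (SD, n = 3 each). The mean was thus 18.2-fold lower in meninges than in diaphragm and 21.1-fold lower than in skin. In the edgeR fit over all genes the log2 difference was -4.18 (standard error 0.46) for meninges minus diaphragm and -4.40 (standard error 0.46) for meninges minus skin. For diaphragm minus skin it was -0.21 (standard error 0.40), which is within the spread of these libraries. These standard errors rest on 1 estimate of spread shared by the 3 tissues, although the spread was widest in meninges. In fits of only the 2 tissues compared they were 0.52, 0.53 and 0.24, in the same order. In order of level, meninges came lowest and stood apart, while diaphragm and skin did not differ beyond their spread. The comparisons against meninges share the meningeal libraries, so they are not separate observations.

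The size of the gap can be seen in the place of the gene within each library. By raw count, Pkhd1l1 ranked between 31 and 49 among all genes in the diaphragm libraries and between 38 and 44 in the skin libraries. In the meningeal libraries it ranked 1432, 5402 and 2759. As a share of all counts it made up 0.00316% of Meninges replicate 2 (95% exact binomial interval 0.00295% to 0.00339%), the lowest library, and 0.144% of Diaphragm replicate 1 (0.142% to 0.145%). These intervals cover counting error only, and they are far narrower than the spread between libraries. Of the 145 genes with an average level of at least 9 on the log2 CPM scale, a cut chosen after the values were seen, Pkhd1l1 had the most negative log2 difference in both meningeal comparisons. With genes at an average of at least 3 on that scale included, 9478 in all, it ranked 92 from the lowest against diaphragm and 78 against skin.

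Counts grow with the length of a transcript, and this one is long. The longest annotated protein-coding transcript of Pkhd1l1 has 12949 bases in 78 exons, and no other annotated gene overlaps it (GENCODE M21, which is of another build than the counts). Per kilobase of this transcript the level was 8.65, 2.02 and 4.84 CPM in the meningeal libraries, against 107, 91.3 and 84.0 in the diaphragm libraries and 110, 89.6 and 127 in the skin libraries. On this per-length scale Pkhd1l1 ranked between 182 and 324 in the peripheral libraries among 15294 genes with a length. It ranked between 4750 and 8938 in the meningeal libraries.

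The meningeal libraries also differed among themselves far more than the peripheral ones. The highest meningeal library had 4.27 times the level of the lowest. The SD of the log2 level was 1.05 in meninges, 0.175 in diaphragm and 0.255 in skin. For the 161 genes within 1 log2 unit of the average level of Pkhd1l1, the median SD was 0.375 in meninges, 0.258 in diaphragm and 0.303 in skin. In meninges 93.2% of those genes varied less than Pkhd1l1, whereas in diaphragm 28.6% and in skin 37.9% did. Those genes were matched on the average over all 9 libraries, and in meninges Pkhd1l1 stood far below that average. Its meningeal spread was not compared with that of genes at a like meningeal level.

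Levels of endothelial genes in the same libraries give a second scale. Prox1, the transcription factor that sets lymphatic identity, was at 1332, 716.5 and 1212 CPM in the meningeal libraries, against 1666 to 2022 in diaphragm and 1799 to 2042 in skin. Flt4, the receptor for VEGF-C, was at 3338, 1353 and 2467 CPM in meninges, 2148 to 3021 in diaphragm and 3093 to 3646 in skin. Cdh5, which encodes VE-cadherin of endothelial junctions, was at 1183, 312.4 and 851.8 CPM in meninges, 706.3 to 987.8 in diaphragm and 713.7 to 964.5 in skin. None of the 4 genes used as denominators was called between tissues by edgeR. Of all genes tested, it called 0.344% against diaphragm, 1.32% against skin and 0.0405% between diaphragm and skin. At such shares the lack of calls is no result about the 4 genes. Pecam1, which encodes the endothelial adhesion molecule and sorted antigen CD31, was at 552.7, 217.8 and 504.4 CPM in meninges, 654.9 to 955.2 in diaphragm and 636.7 to 949.3 in skin. The meningeal libraries of Prox1 and of Pecam1 lay below the other 6, as those of Pkhd1l1 did, with log2 differences of -0.74 and -0.83 for Prox1 and -0.86 and -0.91 for Pecam1 against diaphragm and skin. All 4 genes had counts in each library, and Meninges replicate 2, the library lowest in Pkhd1l1, was the lowest of the 9 in each of them. The summed level of 12 LEC identity genes was 17080, 6925 and 12480 CPM in meninges, 15460 to 21120 in diaphragm and 21480 to 22210 in skin. Of the 12, edgeR called 1, Lyve1, lower in meninges than in skin, where 0.573% of all genes tested were called lower. The meningeal libraries of Lyve1 and Reln, like those of Prox1 and Pecam1, lay below the other 6, as for 2.16% of all genes tested. The log2 differences against diaphragm and skin were -1.21 and -1.63 for Lyve1 and -0.86 and -1.08 for Reln. For the rest of the 12 genes the meningeal libraries overlapped the range of the other 6. For Nr2f2, a transcription factor, the overlap was with diaphragm only. It was at 164.2 to 284.0 CPM in meninges, 264.4 to 356.6 in diaphragm and 524.2 to 703.3 in skin. Its log2 differences were -0.33 against diaphragm and -1.4 against skin, neither of which passed the edgeR test (adjusted p = 0.884 and 0.0554).

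Pkhd1l1 was also low in meninges relative to these genes. Its ratio to Prox1 was 0.0841, 0.0366 and 0.0517 in the meningeal libraries, against 0.538 to 0.829 in diaphragm and 0.645 to 0.847 in skin. The ratio to Flt4 was 0.0194 to 0.0336 in meninges, 0.360 to 0.643 in diaphragm and 0.324 to 0.533 in skin. The ratio to Pecam1 was 0.120 to 0.203 in meninges, 1.24 to 1.96 in diaphragm and 1.74 to 1.82 in skin. For none of the 4 genes did the meningeal ratios overlap those of either other tissue.

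The ratio to Cdh5 was the most even within meninges, at 0.0947, 0.0839 and 0.0735. Its coefficient of variation there was 12.6%, against 64.3% for the CPM level of Pkhd1l1 itself. For the ratios to Prox1, Flt4 and Pecam1 it was 42.2%, 27.3% and 31.4% in meninges. The ratio to Cdh5 varied by 8.18% in diaphragm and 19.0% in skin, against 12.3% and 17.4% for the CPM level. In diaphragm the ratio to Cdh5 was 1.31 to 1.54 and in skin 1.36 to 2.0. On a log2 scale the difference relative to Cdh5 was -4.07 for meninges minus diaphragm and -4.32 for meninges minus skin. Over the 4 denominators it ran from -4.28 to -3.46 against diaphragm and from -4.32 to -3.61 against skin.

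**Figure D2:**
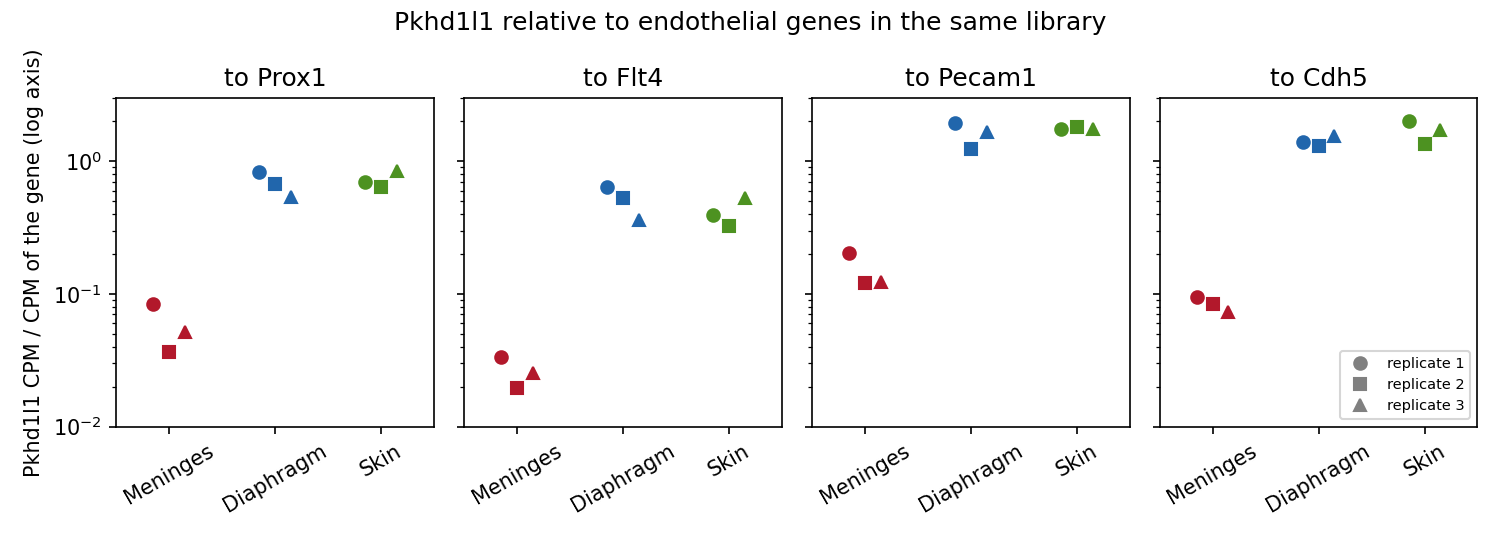
Ratio of the Pkhd1l1 level to that of Prox1, Flt4, Pecam1 or Cdh5 in the same library (log axis), 1 point per library. In every panel the 3 meningeal points lie below the 6 others, and the meningeal ratios to Cdh5 lie close together between 0.0735 and 0.0947.

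Transcripts of other cell types also differed between the libraries. The summed level of 9 fibroblast markers was 1383, 7997 and 7845 CPM in the meningeal libraries, against 637.1 to 1441 in diaphragm and 111.6 to 1062 in skin. Of 9 meningeal fibroblast markers, all had counts in meninges, at sums of 182.1 to 526.4 CPM, while Slc47a1, Slc6a13, Foxd1, Zic4, Alx4 and Crabp2 had none in diaphragm or skin. Meninges replicate 1, whose fibroblast sum lay inside the diaphragm range, carried 112 CPM of Pkhd1l1. Its sums of meningeal fibroblast, bone and cartilage, mural, Schwann and neural, and blood endothelial markers were above those of every diaphragm and skin library. Its muscle, mesothelial, leukocyte, keratinocyte and simple epithelial sums were not. A fit with Meninges replicate 1 alone for meninges was added once the data had been seen. There the log2 difference of Pkhd1l1 was -3.44 against diaphragm and -3.68 against skin, without a second meningeal library.

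Bone and cartilage markers (8 genes) summed to 186.2, 1232 and 717.9 CPM in meninges, 10.4 to 86.2 in diaphragm and 0.310 to 63.4 in skin. The sums of 8 mural cell markers were 527.4 to 1331 CPM in meninges, 297.7 to 499.2 in diaphragm and 28.8 to 280.5 in skin. Schwann and neural markers (5 genes) summed to 34.8 to 97.5 CPM in meninges, with at most 1.76 in diaphragm and 6.44 in skin. In the other direction, 9 skeletal muscle markers summed to 22.7 to 36.5 CPM in meninges, 383.9 to 1101 in diaphragm and 68.9 to 269.2 in skin. The 6 mesothelial markers reached 1234 CPM in diaphragm, while 5 of them (Msln, Upk3b, Muc16, Wt1 and Lrrn4) had no count in skin, where Pkhd1l1 averaged 1412 CPM. Blood endothelial markers (10 genes) summed to 990.6 to 2338 CPM in meninges, 921.3 to 1757 in diaphragm and 635.1 to 710.0 in skin. For the other lists, 8 leukocyte markers stayed at or under 125.5 CPM, 6 simple epithelial markers at or under 58.7 CPM and the 4 of 6 keratinocyte markers analysed here at or under 137.4 CPM in every library. Against skin, the edgeR test called 1 of 9 fibroblast, 4 of 7 tested meningeal fibroblast, 3 of 6 tested bone and cartilage, 1 of 8 mural and 4 of 10 blood endothelial markers higher in meninges, where 0.748% of all genes tested were called higher. It called 2 of the 10 blood endothelial markers lower in meninges than in skin, where 0.573% of all genes were called lower. Against diaphragm, 1 of 7 meningeal fibroblast, 2 of 6 bone and cartilage and 1 of 10 blood endothelial markers were called higher in meninges, beside 0.169% of all genes. In the same comparison 2 of 9 muscle and 1 of 5 tested mesothelial markers were called lower in meninges, beside 0.175% of all genes. The part of these cell types in the level of Pkhd1l1 was not tested.

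The 12 genes with the most similar profile were chosen by the root mean square difference of log2 CPM from Pkhd1l1 over the 9 libraries, after each gene's own mean was removed. Among 8736 named genes with an average of at least 3 log2 CPM, this difference had a median of 2.49 log2 units. The 12 nearest genes lay between 0.50 and 0.91. They were picked for being low in meninges as Pkhd1l1 is, so their tissue differences are a description. Leaving out 1 meningeal library kept 6 to 7 of the 12, and leaving out 1 diaphragm or skin library kept 9 to 11. The next gene after the 12 differed by 0.916 log2 units, against 0.914 for the last of them, so the end of the list is arbitrary.

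The nearest was Gucy1b3, the beta subunit of the nitric oxide receptor guanylate cyclase, at a difference of 0.50 log2 units. It was at 11.8, 5.37 and 10.4 CPM in meninges, 83.8, 203.4 and 182.5 in diaphragm and 213.0, 143.2 and 194.4 in skin. Next came Wipf3, a regulator of actin assembly, and Ackr3, a scavenging chemokine receptor, at 0.56 and 0.60 log2 units. Slc16a12, of the monocarboxylate transporter family, followed at 0.62 log2 units and a much lower level. It was at 5.60, 0.281 and 2.25 CPM in meninges, 22.6, 54.8 and 38.4 in diaphragm and 47.0, 44.6 and 66.2 in skin. Like Pkhd1l1, it was lowest in Meninges replicate 2 and highest in Skin replicate 3.

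Clca3a1, of the chloride channel accessory family, also differed by 0.62 log2 units. It was at 35.6, 3.59 and 10.7 CPM in meninges, with the same order of the 3 libraries as Pkhd1l1, and at 298.8 to 578.6 in diaphragm and 376.9 to 747.7 in skin. Close paralogs of Clca3a1 exist, and the handling of reads shared between copies is unknown here, which makes its level uncertain. Tnxb, the matrix glycoprotein tenascin-X, had its lowest level in Meninges replicate 3 instead, at 17.3 CPM, against 42.3 and 34.5 in the other meningeal libraries.

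Tll1, a tolloid-like protease, was at 22.2, 8.50 and 7.19 CPM in meninges, 90.1 to 124.3 in diaphragm and 52.6 to 169.8 in skin. Bmx, a non-receptor tyrosine kinase, was at 10.4, 1.97 and 1.56 CPM in meninges, with 28.2 to 120.9 in diaphragm and 95.9 to 127.5 in skin. Dtx1, a regulator of NOTCH signalling, was more even within tissues, at 17.3 to 27.4 CPM in meninges, 110.2 to 195.4 in diaphragm and 224.9 to 254.7 in skin. Stxbp6, a SNARE-binding protein, was at 7.72 to 25.8 CPM in meninges, 66.6 to 261.9 in diaphragm and 168.1 to 629.8 in skin. Tgfbi, a secreted matrix protein, was at 31.6 to 49.4 CPM in meninges, 169.3 to 328.1 in diaphragm and 412.8 to 737.5 in skin, so that its skin and diaphragm libraries did not overlap. The remaining gene of the 12, Glis3, is described with the cystic disease genes.

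**Figure D3:**
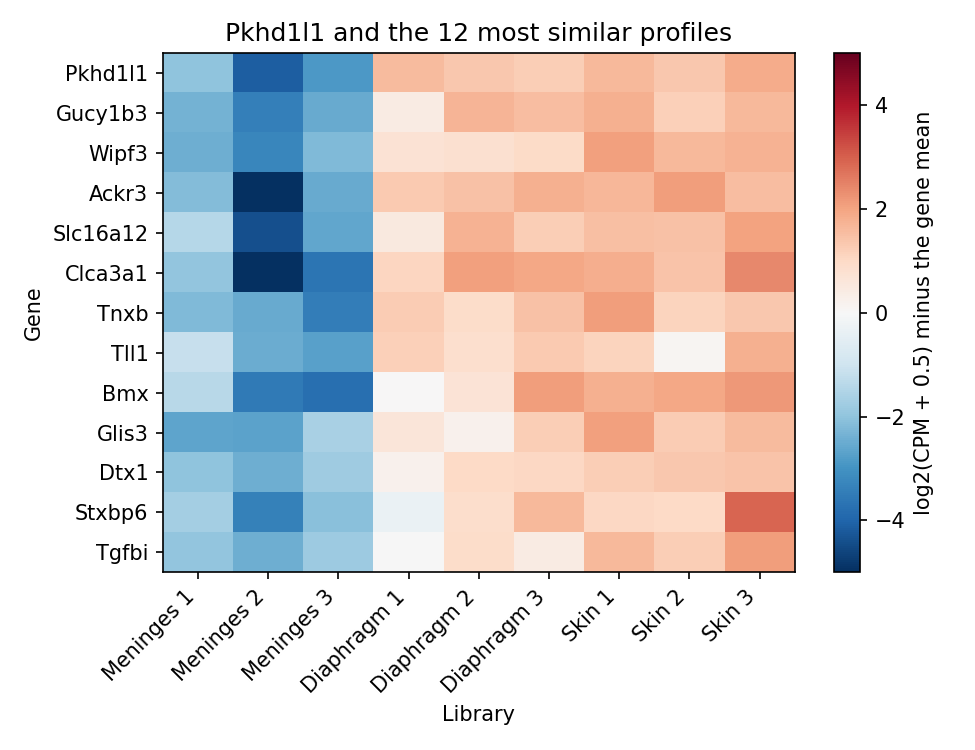
Colour map of log2(CPM + 0.5) minus each gene's mean over the 9 libraries (columns), for Pkhd1l1 (top) and the 12 genes with the smallest root mean square difference from it, nearest first. The 3 meningeal columns are blue in every row, most so for Meninges replicate 2 in Pkhd1l1, Ackr3, Slc16a12 and Clca3a1.

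Genes linked to fibrocystins by structure, disease, the cilium, ectodomain cleavage or the hair bundle were examined in 5 lists. Of these 112 genes, which do not include Pkhd1l1 and Pkhd1, 88 were tested. In the edgeR quasi-likelihood test with Benjamini-Hochberg adjustment over all genes, 1 of the 88 was lower and none higher in meninges than in diaphragm, where 0.344% of all genes tested were called (0.169% higher and 0.175% lower). Against skin it was again 1 lower and none higher, where 1.32% of all genes were called (0.748% higher and 0.573% lower). Between diaphragm and skin none of the 88 was called, where 0.0405% of all genes were (0.0337% higher and 0.00674% lower in diaphragm). In that comparison 6 of the 88 had an unadjusted edgeR p under 0.05, and DESeq2 called 1 and limma voom none. The balance of higher and lower calls depended on the tool. Against diaphragm, DESeq2 called 2 higher (Cemip and Pcsk5) and 1 lower (Glis3) in meninges, and limma voom called Cemip and Pcsk5 higher and none lower. Against skin, DESeq2 called 2 higher (Cys1 and Dzip1l) and 3 lower (Glis3, Ift43 and Pkd1) in meninges, and limma voom called none higher and 2 lower (Glis3 and Pkd1). The gene called by edgeR in both meningeal comparisons was Glis3, and 0.135% of all genes tested were called lower in both. The median log2 difference over the 88 genes was 0.17 against diaphragm and 0.12 against skin, beside 0.05 and 0.08 over all genes tested. Meningeal libraries lay outside the other 6 for 9 of the 88, on either side, and for 6.76% of all genes tested.

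Glis3, a zinc finger transcription factor whose loss gives polycystic kidneys in mice, was at 8.55, 8.16 and 17.6 CPM in the meningeal libraries. The diaphragm libraries were at 83.6, 64.0 and 130.0 CPM and the skin libraries at 228.9, 132.2 and 166.5 CPM, so the 3 meningeal libraries lay below the 6 others. Its log2 difference was -3.02 (standard error 0.55, edgeR adjusted p = 0.0296) for meninges minus diaphragm and -3.94 (standard error 0.57, edgeR adjusted p = 0.00542) for meninges minus skin. The call against diaphragm was lost without Diaphragm replicate 1 or 3 or any 1 meningeal library (edgeR adjusted p between 0.0617 and 0.156), in the fit of only these 2 tissues (edgeR adjusted p = 0.0761) and in limma voom (adjusted p = 0.0735). The log2 difference with 1 library left out stayed between -3.47 and -2.69. The call against skin held whichever of the 9 libraries was left out, with adjusted p up to 0.0221. With Meninges replicate 1 standing alone for its tissue, and assumed to vary like the libraries of the other tissues, the log2 differences were -3.44 and -4.39 (edgeR adjusted p = 0.445 and 0.0635). Glis3 differed from Pkhd1l1 by 0.84 log2 units over the 9 libraries and so was also among the 12 nearest genes.

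The polycystins, receptor and channel of the dominant form of polycystic kidney disease, had another pattern. Pkd1, which is needed in mice for lymphatic vessel growth, was at 220.7, 298.4 and 245.1 CPM in meninges, 288.3, 232.3 and 182.9 in diaphragm and 446.9, 846.5 and 754.5 in skin. Meninges and diaphragm overlapped, and both were below skin. The log2 difference was 0.12 (standard error 0.33) for meninges minus diaphragm and -1.42 (standard error 0.34) for meninges minus skin. The skin difference did not pass edgeR's test (adjusted p = 0.0637) and passed in DESeq2 and limma voom. Pkd2, named after its values were seen, was at 98.2 to 295.0 CPM in meninges, 101.1 to 238.5 in diaphragm and 72.7 to 158.2 in skin. Sec63, a translocon component mutated in polycystic liver disease, was at 173.0 to 276.1 CPM in meninges, 243.8 to 323.0 in diaphragm and 198.4 to 273.1 in skin. Of the 24 genes in the cystic disease list 17 were tested, and their median log2 difference was 0.21 against diaphragm and 0.87 against skin.

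Among proteins with a G8 domain like those of fibrocystins, Cemip2, a membrane protein of hyaluronan metabolism, was at 150.1, 154.3 and 174.8 CPM in meninges. It was at 178.7, 100.6 and 48.6 CPM in diaphragm and 53.1, 82.9 and 95.6 in skin. The meningeal libraries lay above all skin libraries and within the diaphragm range, and neither difference passed the edgeR test (adjusted p = 0.872 and 0.382). Cemip, a secreted hyaluronan-binding protein, was at 4.07, 33.8 and 15.7 CPM in meninges, had no count in diaphragm and reached 2.15 CPM in 1 skin library. Against a floor of 3 counts over the diaphragm libraries together its meningeal level was higher by at least 8.91 log2 units. Neither comparison of Cemip was called by edgeR (adjusted p = 0.289 and 0.502), while DESeq2 and limma voom called it against diaphragm. Within meninges Cemip was highest in replicate 2 and lowest in replicate 1, the opposite order to that of Pkhd1l1.

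Of 48 primary cilium genes, all were tested and none was called by edgeR in any of the 3 comparisons, with 2 at an unadjusted p under 0.05 in each. Of all genes tested, edgeR called 0.344% against diaphragm, 1.32% against skin and 0.0405% between diaphragm and skin. At such shares the lack of edgeR calls is no result about the cilium genes. DESeq2 called none against diaphragm and 1, Ift43, against skin, and limma voom none. Their median log2 difference was 0.40 for meninges minus diaphragm and -0.05 for meninges minus skin, beside 0.05 and 0.08 over all genes. Cc2d2a, a protein of the ciliary transition zone, was at 51.7 to 88.2 CPM in meninges, 15.3 to 76.8 in diaphragm and 29.2 to 116.8 in skin. Dync2h1, the motor of retrograde transport in cilia, was at 29.4 to 107.1 CPM in meninges, 20.5 to 30.5 in diaphragm and 36.2 to 107.4 in skin.

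Genes for the cleavage and turnover of fibrocystin ectodomains, 16 in all and all tested, held no edgeR call against diaphragm (2 at an unadjusted p under 0.05) or against skin (3). With 0.344% and 1.32% of all genes tested called in these comparisons, the lack of edgeR calls is no result about the 16 genes. Nedd4, a ubiquitin ligase, was at 913.5 to 1213 CPM in meninges, 813.7 to 970.0 in diaphragm and 648.2 to 728.6 in skin. Adam10, a membrane sheddase, was at 163.7, 174.1 and 208.8 CPM in meninges, 209.9 to 237.2 in diaphragm and 222.7 to 272.3 in skin. The meningeal libraries of Adam10 lay below the other 6, with log2 differences of -0.32 (standard error 0.32) against diaphragm and -0.41 (standard error 0.33) against skin, neither of which passed the edgeR test (adjusted p = 0.889 and 0.699). The proprotein convertase Pcsk5 was called by DESeq2 and limma voom against diaphragm, though not by edgeR (adjusted p = 0.213). It was at 31.0, 49.5 and 86.3 CPM in meninges, at most 0.332 in diaphragm and at most 14.7 in skin. Aph1b was at 31.0, 0.844 and 4.57 CPM in meninges, 70.1 to 195.9 in diaphragm and 53.7 to 159.8 in skin. Its log2 differences were -3.42 (standard error 1.01, edgeR adjusted p = 0.261) and -3.17 (standard error 1.0, edgeR adjusted p = 0.18). Adam10, Pcsk5 and Aph1b were the 3 of the 16 with meningeal libraries outside the other 6, as for 6.76% of all genes tested.

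Of 22 hair bundle genes, 5 could be tested. None of the 5 was called by edgeR or limma voom in any comparison, and none had an unadjusted edgeR p under 0.05. Since edgeR called at most 1.32% of all genes tested in a comparison, no call among 5 genes is no result about them. DESeq2 gave an adjusted p for 3 of the hair bundle genes and called none. Myo7a, a myosin of stereocilia, was at 76.2 to 149.8 CPM in meninges, 54.7 to 156.8 in diaphragm and 76.7 to 111.5 in skin. Cdh23, a tip link cadherin, was at most 2.56 CPM in meninges and 2.01 in skin and ranged from 0.537 to 47.1 in diaphragm.

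**Figure D4:**
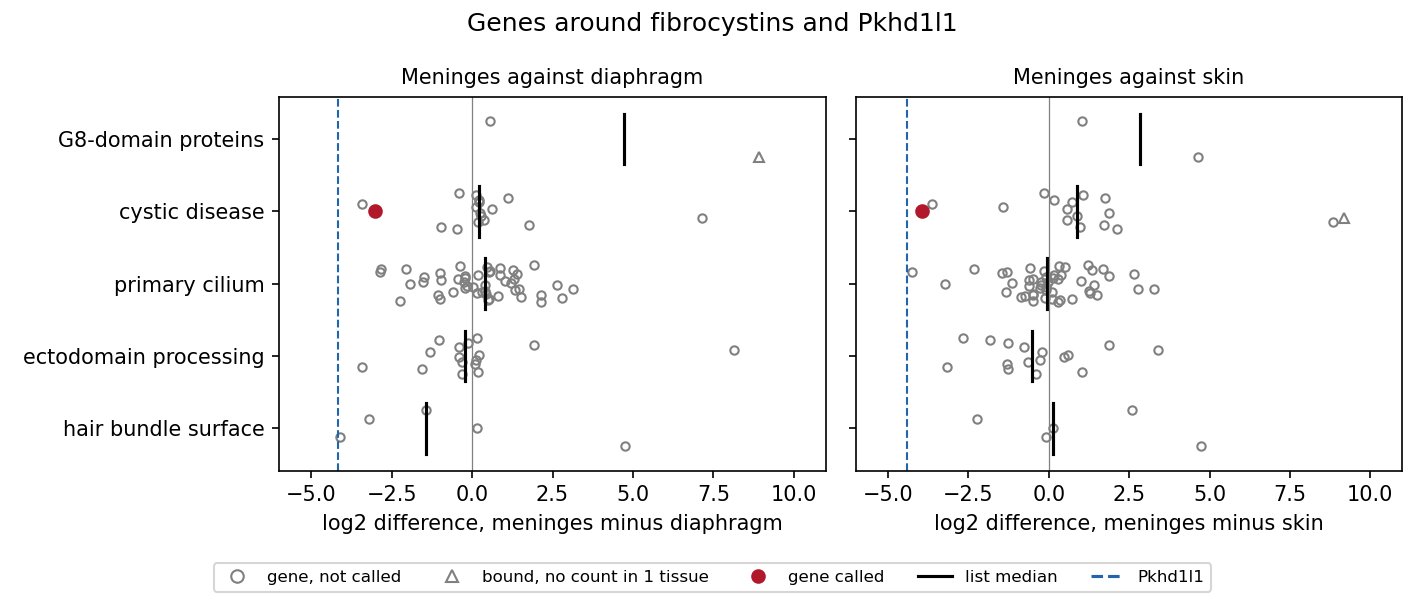
Log2 difference for meninges minus diaphragm (left) and meninges minus skin (right) of each tested gene in 5 lists around fibrocystins. The vertical black bar is the list median, the dashed line is Pkhd1l1, filled points passed the edgeR test, and triangles are lower bounds for genes without a count in the second tissue. Glis3 is the filled point in each panel, and the dashed line at -4.18 and -4.40 lies at the left edge of the lists.

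In none of the tested genes next to Pkhd1l1 on its chromosome did the 3 meningeal libraries lie below the 6 others. Only 2.16% of all genes tested had that pattern, so its absence among so few genes is no result about them. Of the 5 protein-coding genes on each side in RefSeq order, 8 were analysed here and 6 could be tested. None of the 6 was called by edgeR or limma voom in any comparison, and none of the 5 for which DESeq2 gave an adjusted p was called by it. None of these had an unadjusted p under 0.05. With 0.344% of all genes called by edgeR against diaphragm and 1.32% against skin, 0 of 6 is no result about these genes, whose standard errors were mostly large. Eny2, a subunit of the SAGA complex on one side of Pkhd1l1, was at 27.1, 24.4 and 52.1 CPM in meninges, 5.64, 19.0 and 71.2 in diaphragm and 36.0, 95.6 and 28.0 in skin. Ebag9, on the other side, was at 7.89, 34.0 and 37.4 CPM in meninges, 24.8, 2.73 and 6.02 in diaphragm and 24.6, 25.5 and 68.4 in skin. For both genes the tissues overlapped.

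Trps1, a GATA-type repressor, was the most abundant of these neighbours, at 123.7, 189.9 and 173.3 CPM in meninges, 97.0, 142.2 and 85.1 in diaphragm and 138.2, 153.1 and 141.9 in skin. Its log2 difference was 0.59 (standard error 0.39) for meninges minus diaphragm. Emc2, of the endoplasmic reticulum membrane protein complex, was at 1.94 to 14.8 CPM in meninges, 11.5 to 17.8 in diaphragm and 0.697 to 22.5 in skin. Its log2 difference was -1.25 (standard error 1.49) for meninges minus diaphragm and -1.08 (standard error 1.48) for meninges minus skin, so a difference of this size could not be resolved. Nudcd1 was at 0.157 to 13.5 CPM in meninges, 4.08 to 31.4 in diaphragm and 0.812 to 9.37 in skin. Sybu, which links cargo to kinesin in neurons, was at 0.188 to 7.30 CPM in meninges, 0 to 36.1 in diaphragm and 0 to 4.83 in skin. Nudcd1 and Eny2 overlap in the annotation and the strand setting of the counting is not given, so reads of the pair cannot be told apart with certainty. Tmem74 and Csmd3 stayed under 1.35 CPM in every library and were not tested.

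**Figure D5:**
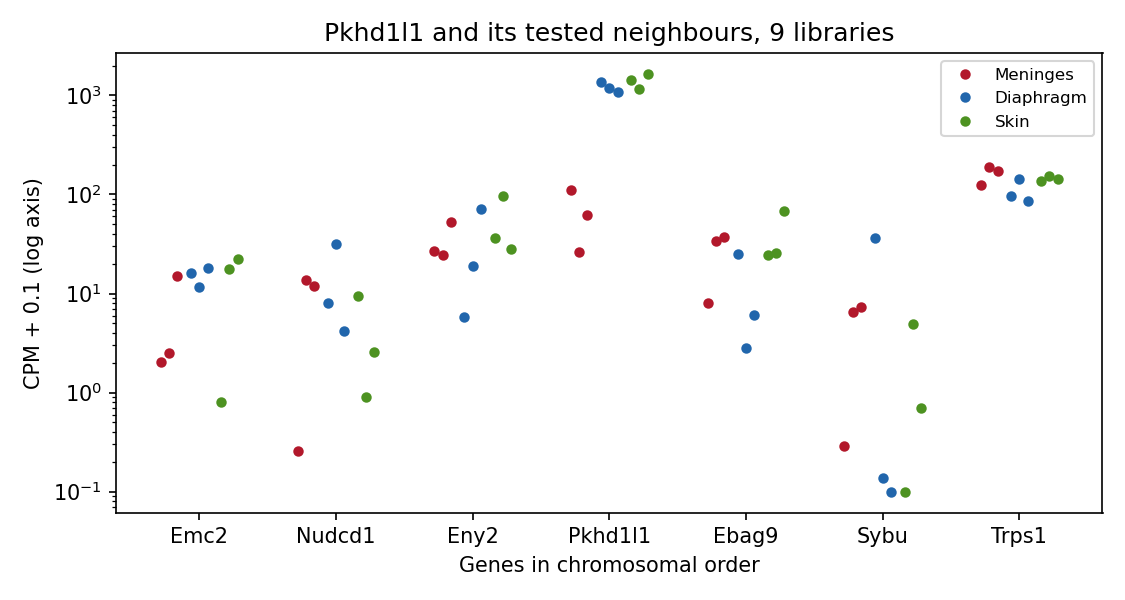
CPM + 0.1 (log axis) of Pkhd1l1 and its 6 tested neighbours in chromosomal order, with 1 point per library coloured by tissue. For Pkhd1l1 alone among the 7 genes the 3 meningeal points lie below all 6 others. Pkhd1l1 was chosen with this pattern known, and 2.16% of all genes tested have it.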

How the data were processed

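Gene counts for 9 libraries of sorted LECs were deposited by the authors as 1 table of whole-number read counts, not normalized. Per the submitters' processing notes, FastQC, STAR and HTSeq were used with the mouse build mm9. Versions, strand setting and the treatment of reads shared between gene copies: not given in the sources used here. Depth was 26075366 to 34592850 counts per library. Symbols were completed from the reference tables where they were missing or turned into dates (22), and 87 genes stayed unnamed. No coordinates were carried between builds, and neighbours come from RefSeq gene order in GRCm38.p6.

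Counts were fitted with edgeR 4.0.16 in R 4.3.3 (filterByExpr, TMM factors, quasi-likelihood test) with 1 mean per tissue over all 9 libraries. This left 14831 genes, and calls are at an adjusted p of 0.05 (Benjamini-Hochberg). Standard errors are the log2 difference divided by the root of the F statistic. Alternatives were other scalings and filters, DESeq2 1.42.0, limma 3.58.1 voom with quality weights, fits of 2 tissues, a replicate block and each library left out. P-values measure the spread between these libraries only. Libraries of a tissue differed by more than counting noise, so none was treated as a second deposit of another, which does not show that they are separate animals.

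Members, lists and tests were chosen with earlier results of these data known. Named genes are Pkhd1l1, the 4 endothelial denominators, 5 neighbours on each side, the 12 nearest profiles and, from each list, the called genes (up to 4) and, where fewer than 2 were called, the 2 of highest average level. Pkd2, Pcsk5, Aph1b, Cys1, Dzip1l, Ift43, Lyve1, Reln and Nr2f2 and the cut at 9 log2 CPM were added after the values were seen. Pkhd1, Trhr and Kcnv1 were not analysed here.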

Additional observations from a re-analysis of the deposited data

How the results depend on the processing

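The log2 difference of Pkhd1l1 kept its sign in both meningeal comparisons under every alternative. Leaving out 1 library gave -4.77 to -3.80 for meninges minus diaphragm, -4.99 to -4.02 for meninges minus skin and -0.34 to -0.09 for diaphragm minus skin. Relative to Pecam1 the meninges minus skin difference was -3.61, and relative to Flt4 the diaphragm minus skin difference was 0.28, with overlapping libraries. Deviations of same-numbered libraries from their tissue means had correlations of -0.0205 to 0.0512, against -0.0565 to 0.0393 for differing numbers. With so few libraries and large spread, this cannot show whether same-numbered libraries share animals. The fit with a replicate block gave -4.35, -4.55 and -0.20, with 16 genes called between diaphragm and skin, and 2 list genes called between meninges and skin.

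Counts of called genes depended strongly on the method. For meninges minus diaphragm the count was 51, against 298 without a filter, 926 with DESeq2, 200 with limma voom, 108 with only those 2 tissues, 11 with Meninges replicate 1 alone and 19 to 105 with 1 library left out. For meninges minus skin it was 196, against 610 without a filter, 1435 with DESeq2, 414 with limma voom, 58 with Meninges replicate 1 alone and 74 to 236 with 1 library left out. For diaphragm minus skin it was 6, against 305 without a filter, 13 with at least 50 counts in 3 libraries, 1018 with DESeq2, 1 with limma voom, 1 with only those 2 tissues, 82 with Meninges replicate 1 alone and 2 to 58 with 1 library left out. The cause was not tested.

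Of the genes in the 5 lists, 1 was called for meninges minus diaphragm, against 3 without a filter, 3 with DESeq2, 2 with limma voom, 0 with Meninges replicate 1 alone (assumed to vary like the other tissues) and 0 to 1 with 1 library left out. For meninges minus skin 1 was called, against 5 without a filter, 5 with DESeq2, 2 with limma voom, 0 with Meninges replicate 1 alone and 1 to 2 with 1 library left out. For diaphragm minus skin none was called, against 2 without a filter, 1 with DESeq2, 1 with Meninges replicate 1 alone and 0 with 1 library left out. Alternatives for Pkhd1 were not run. With 3 libraries a tissue and large spread between libraries in all 3 tissues, differences of low genes are imprecise. The biological coefficient of variation of the edgeR fit, its common spread beyond counting noise, was 1.243.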
